A study of Mus musculus with 15 samples.

Results

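The genes described here are 47 components of nuclear factor kappa B (NF-kB) and Toll-like receptor signalling, chosen by symbol from a fixed list of adaptors, kinases, Rel factors, inhibitors and feedback targets. The rule itself uses no measured value, but the list was drawn up with earlier results of these data known. All 47 were found among the 25639 gene symbols of the count table, and all 47 were among the 12401 genes with enough counts to be tested. RNA sequencing was run on RAW264.7, a mouse macrophage-like cell line labelled wild type, in 15 libraries. The 5 groups, with 3 libraries each, were untreated cells and cells given LCCL at 1 µg or 10 µg, harvested at 6 h or at 24 h. LCCL is named in the study's title as the core motif of a peptide under study as a drug that turns macrophages towards the inflammatory M1 state. The labels give the dose as a mass without a volume. No vehicle-treated group is described and no harvest time is given for the untreated cells, so peptide and time in culture cannot be told apart in the comparisons with them. The labels do not say whether the 3 libraries of a group came from separate cultures, and p-values then measure only the spread between these libraries.

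Toll-like receptors sense microbial molecules and pass the signal through the adaptors Myd88 and Ticam1 (TRIF), with Ticam2 (TRAM) bridging Toll-like receptor 4 to TRIF. IRAK and TRAF proteins and the kinase Map3k7 (TAK1) then switch on the IkB kinase complex, which marks inhibitory IkB proteins for destruction and frees Rel-family dimers to enter the nucleus. The freed dimers raise the transcription of inflammatory genes and of their own brakes, among them Nfkbia and Tnfaip3 (A20), while a slower, noncanonical branch runs from Map3k14 (NIK) to the processing of Nfkb2 and the release of Relb. In macrophages the pathway is a main driver of the inflammatory response.

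The 47 members were sorted by role. The Rel factors were Rela, Relb, Rel, Nfkb1 and Nfkb2, and the IkB family held Nfkbia, Nfkbib, Nfkbie, Nfkbid, Nfkbiz and Bcl3. The kinases and their partners were Ikbkb, Chuk, Ikbkg, Ikbke, Map3k7, Tab2, Map3k8 and Map3k14, and the adaptors and IRAK kinases were Myd88, Ticam1, Ticam2, Irak1, Irak2, Irak3 and Irak4. A group of 10 held TRAF, cIAP and RIP proteins and TNF receptor 2, namely Tnfrsf1b, Traf1, Traf2, Traf3, Traf6, Birc2, Birc3, Ripk1, Ripk2 and Cflar. The feedback inhibitors were Tnfaip3, Tnip1, Tnip2, Zc3h12a, Zfp36, Socs1 and Socs3, and the other target genes were Tnfaip2, Icam1, Cd44 and Sod2.

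The libraries held 19085148 to 22434642 counts. The summed level of 10 macrophage markers was 11900 to 17100 CPM (counts scaled to library size), with all 10 detected, and the 5 marker lists for other cell types summed to at most 1.19 CPM in any library, with 5 of 7 fibroblast, 5 of 6 epithelial, 3 of 7 T cell, 3 of 5 B cell and 2 of 7 neutrophil markers at 0 in every library. 1 library stood apart: replicate 1 of the 1 µg 24 h group differed from its mates by a chi-square per degree of freedom of 13.3 and 15, against 2.51 to 7.01 for the other pairs of replicates. Results that rest on it are given with and without it. In bulk RNA, fewer cells expressing a gene and less of its RNA per cell cannot be told apart.

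In untreated cells the members covered a wide range of levels per length. On the scale of CPM per kilobase of annotated exon (GENCODE M21), the highest was Cd44, a surface receptor for hyaluronan, at 91.1 ± 0.816 (SD, n = 3), followed by the inhibitor Nfkbia at 78.3 ± 3.65, the target gene Tnfaip2 at 44.1 ± 2.83 and the adaptor Myd88 at 41.9 ± 2.08. The last 2 of these lay within their spread of each other. At the low end stood the cytokine-signalling inhibitor Socs1 at 0.413 ± 0.137, the TNF receptor-associated factor Traf1 at 1.32 ± 0.166, the IkB kinase homologue Ikbke at 1.69 ± 0.133 and Socs3 at 1.8 ± 0.328. The length takes in every annotated exon of a gene, so the order depends on the annotation. By mean CPM, Bcl3 at 8.77 lay below Traf1 at 11.6 and Ikbke at 15.2. The genes of the IkB kinase complex were expressed in untreated cells, with Ikbkb at 81 to 82.6 CPM, Chuk at 71.9 to 80 CPM and Ikbkg at 121 to 129 CPM.

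Each member was tested in a fit over all 12401 genes, and a member is said to have risen or fallen when edgeR's quasi-likelihood test gave an adjusted p (Benjamini-Hochberg, over all genes tested) under 0.05. Fold changes are log2 values ± SE. The 4 comparisons with untreated cells share the same 3 untreated libraries, so their values are set side by side and not counted as independent of each other.

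At 6 h the lower dose moved no member past the threshold and the higher dose raised 18, among them 5 of 6 IkB genes and 4 of 7 feedback inhibitors. With 1 µg, 0 of 47 members passed in edgeR, DESeq2 or limma-voom, and 0% of all genes tested passed. At an unadjusted p under 0.05 there were 4 members (337 of all genes tested), namely Relb, Nfkbie, Birc3 and Tnfaip3. In 10 members (21.3%) all 3 libraries of the 1 µg group lay above all 3 untreated libraries, against 5.62% of all genes tested, and in 1 member (2.13%), Map3k14, all 3 lay below, against 5.32%. With 10 µg for 6 h, 18 of 47 members (38.3%) rose and 0 fell. Of all genes tested 5.95% passed, 4.09% upward and 1.86% downward. The median log2 fold change over the members was 0.15, against -0.00 over all genes tested, and in 25 members (53.2%) the 3 treated libraries lay above all 3 untreated ones, against 14% of all genes. No member reached a 2-fold change at 6 h, and the median size among the 18 was 0.407 on the log2 scale. Leaving out 1 library at a time left 14 to 16 members called in this comparison, while the count over all genes fell from 738 to between 390 and 469, and it was 1487 with these 2 groups fitted alone.

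At 24 h most members had moved, in both directions, as had most genes. With 1 µg, 17 members rose and 13 fell, against 30.8% and 31% of all genes tested. With 10 µg, 21 rose and 15 fell, against 35.4% and 34.9%. The members' shares of 63.8% and 76.6% called stood beside 61.8% and 70.3% of all genes, so the number called at 24 h was near the background. The median log2 fold change was 0.05 and 0.11 over the members, against 0.01 over all genes tested in both comparisons. The split depended on scaling: with upper-quartile scaling it was 24 up and 6 down for 1 µg and 26 up and 10 down for 10 µg, and without scaling beyond library totals 25 and 6, and 25 and 11. Those scalings put the median log2 fold change of all genes at 0.095 to 0.13 in the comparisons of 24 h groups with untreated cells or with 6 h groups, and no called member changed its sign under them. The macrophage marker sum was 14600 to 15100 CPM in untreated cells. After 1 µg for 24 h it was 17100 CPM in replicate 1, the library that stood apart, and 14300 and 14400 CPM in replicates 2 and 3. After 10 µg for 24 h it was 11900 to 12700 CPM. The single markers did not move as a set. Of the 10, 5 rose and 3 fell after 1 µg for 24 h, and 6 rose and 4 fell after 10 µg for 24 h. Lyz2, the largest part of the sum, was among those that fell with 10 µg. The part of these markers in the 24 h results was not tested.

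**Figure D1:**
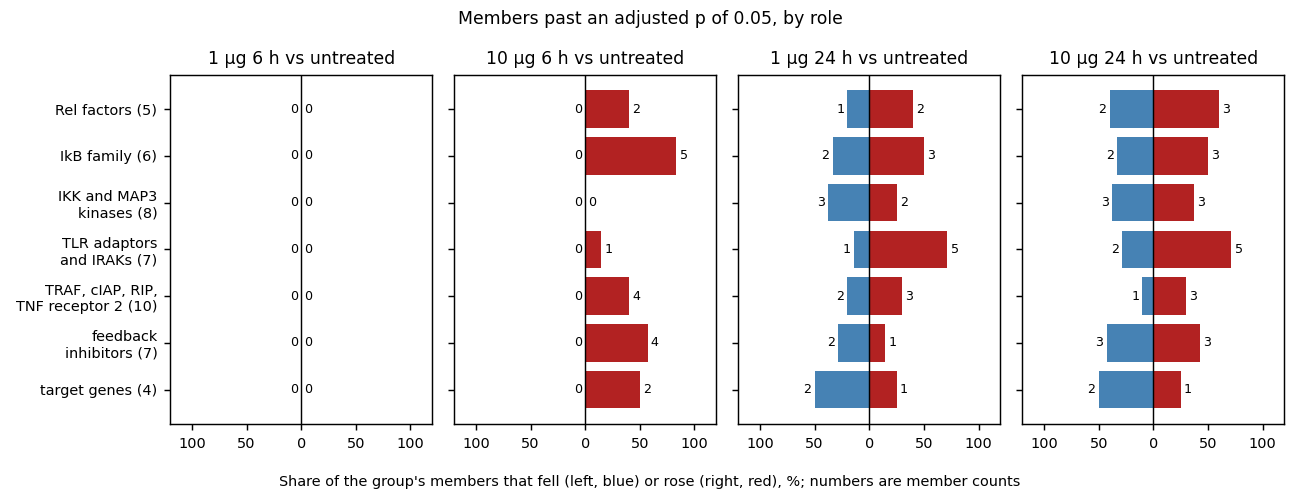
Share of each role group's members that fell (left of 0) or rose (right of 0) past an adjusted p of 0.05, in percent, in the 4 comparisons with untreated cells. Numbers are members, with the group's size after its name. After 10 µg for 6 h the bars lie on the rising side alone with 5 of 6 in the IkB family, while at 24 h every role group has bars on both sides.

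**Figure D2:**
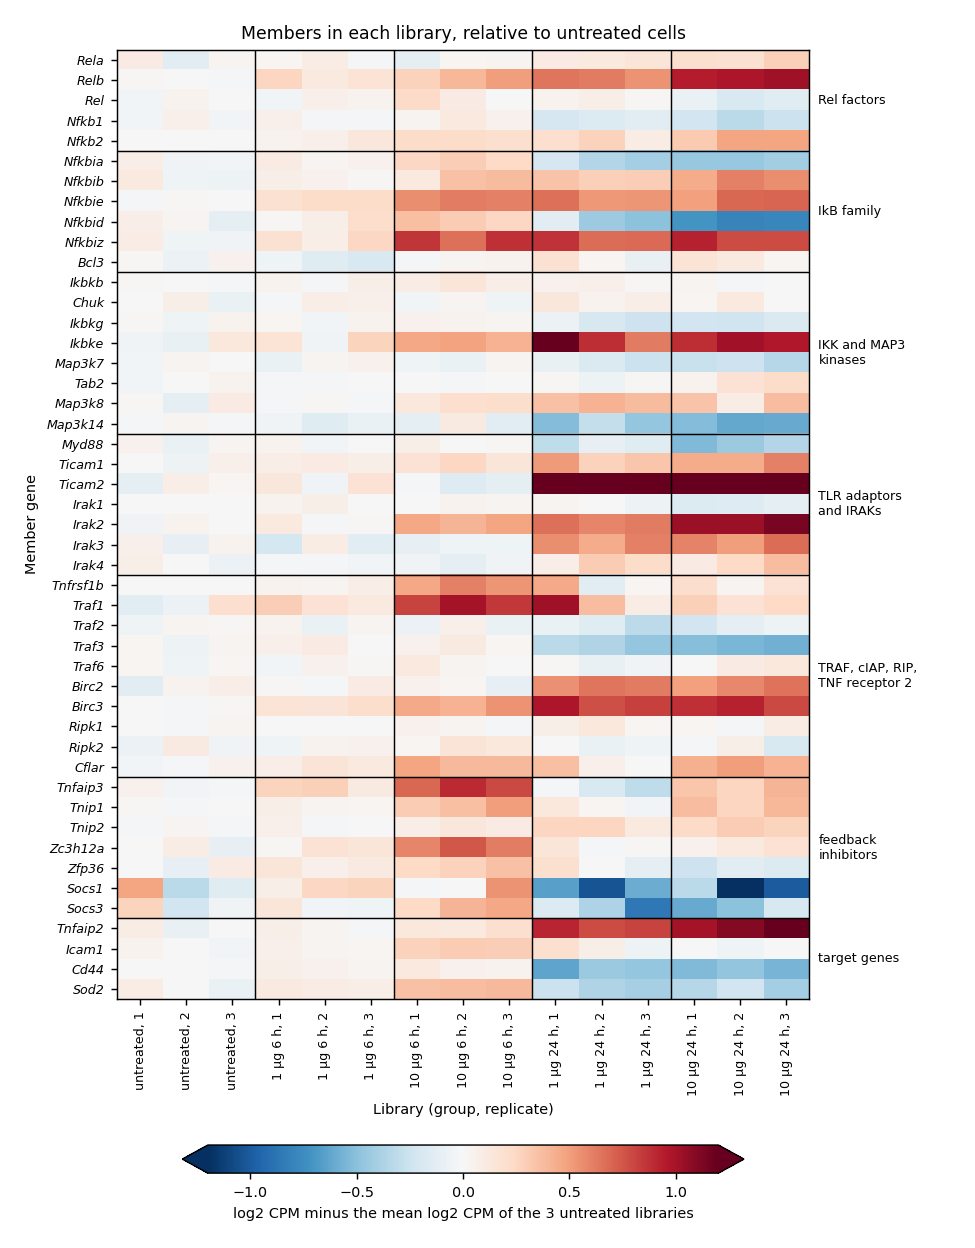
Log2 CPM of the 47 members in each of the 15 libraries minus the mean log2 CPM of the 3 untreated libraries, with members grouped by role. Colours saturate at the ends of the scale bar, beyond 1.2 in size. The 10 µg 6 h columns are red for most members of the IkB and feedback groups, though not for Bcl3 or in most libraries for Socs1. The 24 h columns show falls beside rises within the same role group.

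The stretches of promoter printed here were chosen because these members rose after 10 µg for 6 h and carry a match to the kB consensus, the 10-base site that Rel-family dimers bind, in the window from 250 bases before to 50 after an annotated start. Windows came from RefSeq on build GRCm38.p6, which is an older build than the GRCm39 named for the counts, and 40 of the 47 members had one. The consensus was searched by its usual letters on both strands, and overlapping matches were counted as separate matches. A gene with several annotated starts had several windows and counted as having a match if any of them held it. Of the members with a window, 11 of 40 (27.5%) had a match, against 579 of 9623 tested genes with a window (6.02%) and 1388 of 27025 genes in the whole table (5.14%). Among members that rose after 10 µg for 6 h it was 7 of 16 (43.8%), with no window for Relb and Nfkbiz, and among the others 4 of 24 (16.7%), namely Rel, Traf3, Map3k7 and Bcl3. No test was run on these shares, and a match is a run of letters, not a measured binding site. Capitals mark the matches. Each line reads 5′ to 3′ on the gene's own strand, and Rel, which did not pass at 6 h, is shown for contrast. The stretches lie at chr12:55492648-55492696 (minus strand) for Nfkbia, chr17:45555574-45555623 (plus strand) for Nfkbie, chr7:30422160-30422254 (plus strand) for Nfkbid, chr10:19015411-19015555 (minus strand) for Tnfaip3, chr11:54962967-54963018 (minus strand) for Tnip1, chr19:46304678-46304736 (plus strand) for the first of several Nfkb2 starts, chr17:13007736-13007785 (plus strand) for Sod2 and chr11:23771031-23771081 (minus strand) for Rel.
Nfkbia: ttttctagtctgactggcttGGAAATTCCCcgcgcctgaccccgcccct
Nfkbie: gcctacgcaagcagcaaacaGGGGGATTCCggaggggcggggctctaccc
Nfkbid: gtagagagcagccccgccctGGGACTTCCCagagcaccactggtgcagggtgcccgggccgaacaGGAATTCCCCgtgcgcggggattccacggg
Tnfaip3: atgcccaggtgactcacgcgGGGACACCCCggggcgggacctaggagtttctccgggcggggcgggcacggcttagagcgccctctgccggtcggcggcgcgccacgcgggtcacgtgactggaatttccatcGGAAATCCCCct
Tnip1: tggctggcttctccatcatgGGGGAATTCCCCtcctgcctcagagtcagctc
Nfkb2: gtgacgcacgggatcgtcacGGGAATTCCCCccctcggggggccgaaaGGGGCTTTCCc
Sod2: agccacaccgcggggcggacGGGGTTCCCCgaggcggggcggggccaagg
Rel: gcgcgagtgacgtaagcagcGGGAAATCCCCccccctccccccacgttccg
Tnip1 had 3 matches that overlap in 1 run of 12 bases, 56 to 58 bases before its start, and Nfkb2 had an overlapping pair and a further single match. Nfkbid and Tnfaip3 each had a pair of separate matches at the start shown and none in the windows of their other annotated starts. The nearest match to a start among those printed was that of Nfkb2, 11 bases before it.

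Among the Rel factors, Relb and Nfkb2, the 2 genes of the noncanonical dimer, rose at both times, while Nfkb1, which encodes the precursor of a canonical subunit, fell at 24 h. Relb was at 23.6, 23.5 and 23.2 CPM in untreated cells. Relb stood at 28, 25.4 and 26.3 CPM with 1 µg and 28.4, 31 and 33.2 CPM with 10 µg at 6 h. For Relb the 24 h values were 36.8, 36.2 and 34 CPM with 1 µg and 45.1, 46.1 and 47.5 CPM with 10 µg. The 5 groups did not overlap at all, rising from untreated cells through both 6 h doses to both 24 h doses. Relb changed by 0.40 ± 0.07 (adjusted p = 0.00053) after 10 µg for 6 h, 0.61 ± 0.07 (adjusted p = 2.05e-08) after 1 µg for 24 h and 0.98 ± 0.07 (adjusted p = 1.07e-12) after 10 µg for 24 h. After 1 µg for 6 h it changed by 0.18 ± 0.07 (adjusted p = 1), which did not pass.

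Nfkb2 was at 66.3, 65.7 and 66.3 CPM in untreated cells. Nfkb2 stood at 68, 69 and 72.6 CPM with 1 µg and 76.8, 77.1 and 75.5 CPM with 10 µg at 6 h. For Nfkb2 the 24 h values were 76.1, 80 and 70.3 CPM with 1 µg and 82.3, 92.1 and 91.8 CPM with 10 µg. The 10 µg libraries lay above all untreated ones at both times, and the 10 µg 24 h libraries were the highest. The changes were 0.21 ± 0.05 (adjusted p = 0.0201), 0.19 ± 0.05 (adjusted p = 0.0038) and 0.42 ± 0.05 (adjusted p = 1.52e-07) in the same order of comparisons. The 6 h call was lost whenever any 1 of the 6 libraries compared was left out, with adjusted p up to 0.0831. Nfkb2 shares exon sequence with Psd on the opposite strand, and the strand setting of the counting is not given. Psd changed by 0.17 ± 0.12 (adjusted p = 0.481), 0.35 ± 0.12 (adjusted p = 0.0122) and 0.44 ± 0.12 (adjusted p = 0.00164) in the same comparisons. Reads of the pair cannot be told apart if counting ignored strand.

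Nfkb1 was at 117, 124 and 116 CPM in untreated cells. Nfkb1 stood at 124, 118 and 118 CPM with 1 µg and 121, 129 and 123 CPM with 10 µg at 6 h. For Nfkb1 the 24 h values were 103, 106 and 109 CPM with 1 µg and 101, 95.1 and 99.7 CPM with 10 µg. Both 24 h groups lay below every other library, and the 10 µg libraries below the 1 µg ones. It fell by 0.16 with 1 µg (SE 0.05, adjusted p = 0.0042), a call that was lost with upper-quartile or no scaling, and by 0.27 with 10 µg (SE 0.05, adjusted p = 1.8e-05). Rel, encoding c-Rel, was at 93.9, 99.1 and 95.8 CPM in untreated cells. Rel stood at 94.3, 100 and 99.2 CPM with 1 µg and 113, 103 and 96 CPM with 10 µg at 6 h. For Rel the 24 h values were 99, 101 and 97 CPM with 1 µg and 91.3, 84.8 and 87 CPM with 10 µg. The 10 µg 24 h libraries were below all the others, with a change of -0.13 ± 0.05 (adjusted p = 0.0302), and this call did not hold under those same scalings or without untreated replicate 2, untreated replicate 3, 10 µg 24 h replicate 2 or 10 µg 24 h replicate 3 (adjusted p up to 0.75 over all settings). Rela, the main activating subunit, passed only after 10 µg for 24 h, at 0.22 ± 0.06 (adjusted p = 0.00157). After 1 µg for 24 h Rela passed with upper-quartile or no scaling or without untreated replicate 1.

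In the IkB family 5 of 6 members rose with 10 µg at 6 h, a count that was 3 of 6 without untreated replicate 3 or without 10 µg 6 h replicate 2. At 24 h Nfkbie, Nfkbiz and Nfkbib were raised in both groups, while Nfkbia and Nfkbid were lowered. Of all genes tested 30.8% rose and 31% fell with 1 µg at 24 h, and 35.4% and 34.9% with 10 µg. Every role group had members on both sides, so falls beside rises were not particular to this family. Nfkbia, the classical inhibitor that is resynthesised after each burst of NF-kB activity, was at 133, 122 and 123 CPM in untreated cells. Nfkbia stood at 135, 129 and 130 CPM with 1 µg and 150, 155 and 148 CPM with 10 µg at 6 h. For Nfkbia the 24 h values were 109, 98.6 and 94.9 CPM with 1 µg and 92, 92 and 94.6 CPM with 10 µg. Libraries of the 10 µg 6 h group were above, and both 24 h groups below, every untreated library. Nfkbia changed by 0.26 ± 0.05 (adjusted p = 0.00201) after 10 µg for 6 h, by -0.32 ± 0.05 (adjusted p = 7.87e-06) after 1 µg for 24 h and by -0.44 ± 0.05 (adjusted p = 3.73e-08) after 10 µg for 24 h.

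Nfkbid, a nuclear member of the family (IkBNS), was at 41.9, 40.7 and 36.8 CPM in untreated cells. Nfkbid stood at 40.2, 41.8 and 46 CPM with 1 µg and 51.2, 49.3 and 47.3 CPM with 10 µg at 6 h. For Nfkbid the 24 h values were 36.5, 29.3 and 28.2 CPM with 1 µg and 24.1, 22.7 and 23.1 CPM with 10 µg. Its order across groups was like that of Nfkbia, with a deeper fall: the 10 µg 24 h libraries were the lowest and did not overlap with any other group. The changes were 0.31 ± 0.08 (adjusted p = 0.0166) at 6 h with 10 µg, -0.34 ± 0.08 (adjusted p = 0.000601) at 24 h with 1 µg and -0.77 ± 0.08 (adjusted p = 7.08e-09) at 24 h with 10 µg. The 6 h call was lost without untreated replicate 3, 10 µg 6 h replicate 1 or 10 µg 6 h replicate 2 (adjusted p up to 0.112).

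Nfkbie, a cytoplasmic inhibitor, was at 25.2, 25.6 and 25.5 CPM in untreated cells. Nfkbie stood at 28.9, 29.7 and 29.6 CPM with 1 µg and 37.4, 39.1 and 38.6 CPM with 10 µg at 6 h. For Nfkbie the 24 h values were 40.2, 36.4 and 36.8 CPM with 1 µg and 35.8, 41 and 41.2 CPM with 10 µg. All 4 treated groups lay above the untreated libraries, the 1 µg 6 h group in between, and the other 3 treated groups overlapped. The changes were 0.21 ± 0.07 (adjusted p = 1), not past the threshold, after 1 µg for 6 h, 0.59 ± 0.07 (adjusted p = 2e-06) after 10 µg for 6 h, 0.57 ± 0.06 (adjusted p = 3.51e-08) after 1 µg for 24 h and 0.63 ± 0.07 (adjusted p = 3.52e-09) after 10 µg for 24 h. Nfkbiz, a nuclear IkB protein that acts as a coactivator of a subset of inflammatory genes, was at 16.2, 14.6 and 14.7 CPM in untreated cells. Nfkbiz stood at 17.2, 16 and 18 CPM with 1 µg and 27.4, 23.9 and 27.9 CPM with 10 µg at 6 h. For Nfkbiz the 24 h values were 27.7, 24.1 and 24.3 CPM with 1 µg and 28.8, 26.2 and 26.2 CPM with 10 µg. As with Nfkbie, the 10 µg 6 h group and both 24 h groups overlapped at a raised level, with changes of 0.80 ± 0.08 (adjusted p = 8.48e-07), 0.74 ± 0.08 (adjusted p = 2.8e-08) and 0.84 ± 0.08 (adjusted p = 1.81e-09). Nfkbib rose by 0.28 ± 0.07, 0.31 ± 0.07 and 0.54 ± 0.07 in the same 3 comparisons (adjusted p = 0.0168, 0.000626 and 2.54e-07), and its 6 h call was lost without untreated replicate 2 or 3 or 10 µg 6 h replicate 2 or 3 (adjusted p up to 0.115). Its exons overlap by 42 bases those of Sirt2 on the opposite strand, which changed by 0.24 ± 0.08 (adjusted p = 0.0904), 0.60 ± 0.08 and 1.18 ± 0.08, and reads of the pair cannot be told apart if counting ignored strand. Bcl3, a nuclear partner of the p50 and p52 subunits, passed in none of the comparisons with untreated cells, at 0.02 ± 0.11 after 10 µg for 6 h and 0.10 ± 0.11 after 10 µg for 24 h.

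**Figure D3:**
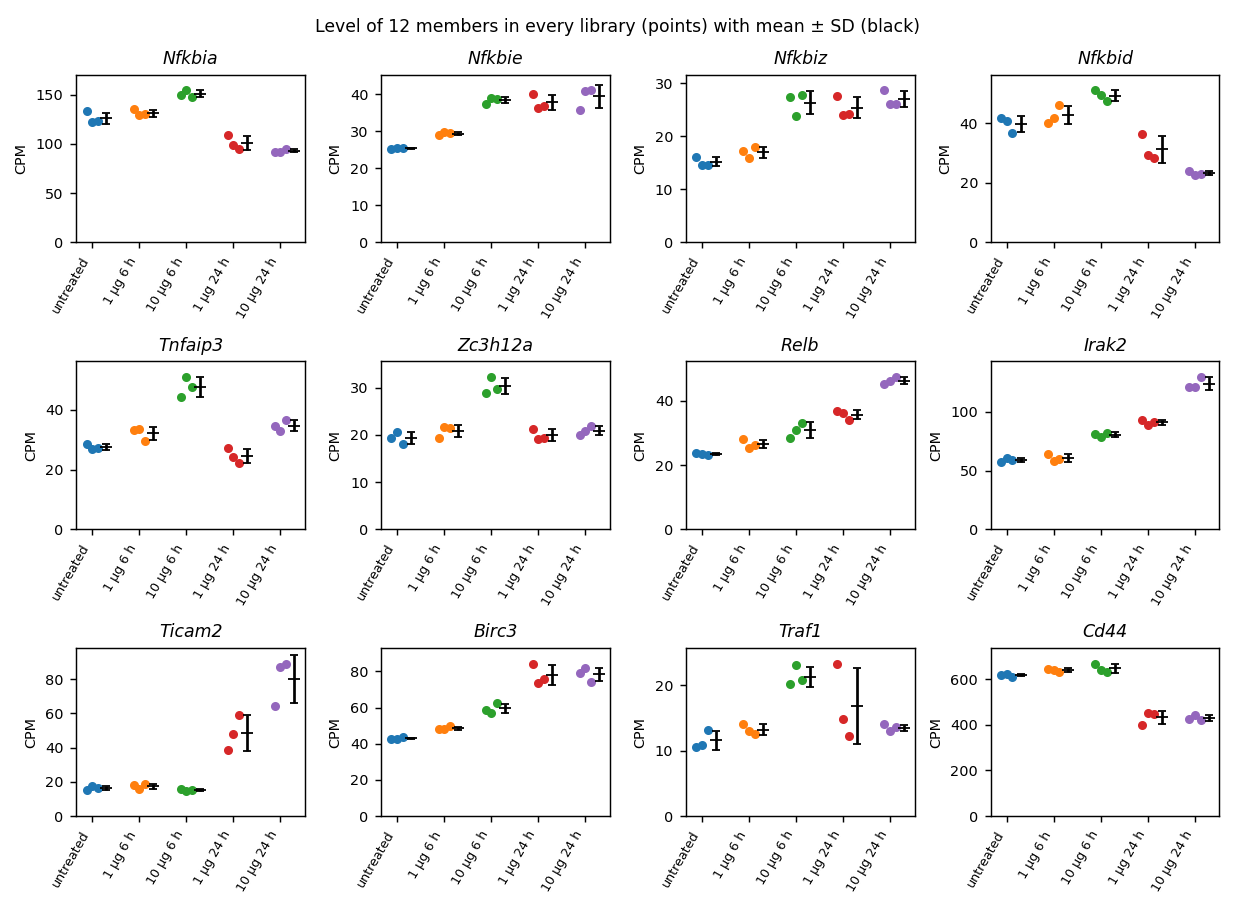
Level (CPM, linear axis from 0) of 12 members in every library, coloured by group, with the group mean and SD in black (n = 3). Nfkbia and Nfkbid are highest after 10 µg for 6 h and lowest after 10 µg for 24 h, Nfkbie and Nfkbiz stay raised, and Relb, Irak2 and Ticam2 are highest after 10 µg for 24 h.

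None of the 8 kinases and kinase partners passed after 10 µg for 6 h. Of all genes tested 5.95% passed, so a count of 0 of 8 was near the background. At an unadjusted p under 0.05 there were 3 of the 8, and 2288 of the 12401 genes tested. At 24 h the noncanonical kinase Map3k14 fell while Map3k8 and Ikbke rose. Map3k14 was at 29.4, 30.5 and 29.6 CPM in untreated cells. Map3k14 stood at 29, 26.9 and 28.2 CPM with 1 µg and 27.7, 32.1 and 27.3 CPM with 10 µg at 6 h. For Map3k14 the 24 h values were 20.8, 24.4 and 21.6 CPM with 1 µg and 20.7, 19.5 and 19.6 CPM with 10 µg. Both 24 h groups lay below every other library, with falls of 0.42 (SE 0.08, adjusted p = 3.11e-05) for 1 µg and 0.58 (SE 0.08, adjusted p = 2.34e-07) for 10 µg on the log2 scale. Map3k8 (TPL2), which couples the complex to the ERK kinases, was at 19.3, 17.7 and 20.4 CPM in untreated cells. Map3k8 stood at 18.8, 19.3 and 18.9 CPM with 1 µg and 20.9, 22.1 and 22.2 CPM with 10 µg at 6 h. For Map3k8 the 24 h values were 24.5, 25.6 and 24.9 CPM with 1 µg and 24.3, 20.4 and 24.7 CPM with 10 µg. The 24 h groups overlapped with each other, the 1 µg 24 h libraries lay above all untreated and 6 h ones, and 1 of the 10 µg 24 h libraries was no higher than the top untreated one. It rose by 0.38 ± 0.08 (adjusted p = 0.000146) and 0.27 ± 0.08 (adjusted p = 0.00336).

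Map3k7 (TAK1), which phosphorylates the IkB kinases, was at 109, 114 and 112 CPM in untreated cells. Map3k7 stood at 105, 114 and 116 CPM with 1 µg and 108, 105 and 114 CPM with 10 µg at 6 h. For Map3k7 the 24 h values were 105, 98.8 and 93.3 CPM with 1 µg and 92.5, 94.1 and 88.2 CPM with 10 µg. The 24 h libraries lay below the untreated ones, with small falls of 0.17 (SE 0.05, adjusted p = 0.00628) and 0.28 (SE 0.05, adjusted p = 3.19e-05), the first of which was lost with upper-quartile or no scaling. Ikbke, an IkB kinase homologue that acts in the interferon branch, was at 14.7, 14.3 and 16.5 CPM in untreated cells, 43.4, 28.1 and 23.4 CPM after 1 µg for 24 h and 28.1, 30.5 and 29.5 CPM after 10 µg for 24 h. It rose by 1.06 ± 0.18 (adjusted p = 0.000278) and 0.95 ± 0.18 (adjusted p = 0.000538) at 24 h. Replicate 1 of the 1 µg 24 h group, the library that stood apart, was the highest of the 15, and without it the rise with 1 µg was 0.766 (adjusted p = 2.92e-08). After 10 µg for 6 h Ikbke stood at 21, 21.2 and 20.3 CPM, above all untreated libraries, but its change of 0.46 ± 0.19 (adjusted p = 0.216) did not pass in edgeR and passed in DESeq2 and with the 2 groups fitted alone.

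The core kinase complex moved little. Ikbkb and Chuk passed in none of the 4 comparisons, with changes of at most 0.11 in size. With upper-quartile or no scaling Chuk passed in both 24 h comparisons and Ikbkb after 1 µg for 24 h. After 10 µg for 24 h Ikbkb passed with upper-quartile scaling alone. The scaffold subunit Ikbkg fell by 0.17 and 0.21 at 24 h (SE 0.05 each, adjusted p = 0.00463 and 0.000452). The first of these calls did not hold with upper-quartile or no scaling and the second not with upper-quartile scaling. G6pdx, whose exons overlap those of Ikbkg by 418 bases on the opposite strand, fell further, by 0.86 and 1.27 (SE 0.07 each). Tab2, the adaptor of TAK1, passed only after 10 µg for 24 h, at 0.15 ± 0.05 (adjusted p = 0.00792), and lost the call without 10 µg 24 h replicate 3 (adjusted p = 0.0645).

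Among the 7 adaptors and IRAK kinases, only Irak2 passed after 10 µg for 6 h, where 5.95% of all genes tested passed. At 24 h Ticam2 rose the most of all 47 members while Myd88 fell. Irak2, a kinase-like protein that sustains signalling late in the response, was at 57.5, 60.6 and 59 CPM in untreated cells. Irak2 stood at 64.2, 58.3 and 59.8 CPM with 1 µg and 81.3, 78.2 and 82.1 CPM with 10 µg at 6 h. For Irak2 the 24 h values were 93.1, 88.8 and 91 CPM with 1 µg and 121, 121 and 130 CPM with 10 µg. Beyond 1 µg at 6 h, each group lay above the one before with no overlap, up to 10 µg at 24 h. The changes were 0.45 ± 0.05 (adjusted p = 2.86e-06), 0.62 ± 0.05 (adjusted p = 1.07e-10) and 1.07 ± 0.05 (adjusted p = 1.24e-15), the last a 2.1-fold rise.

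Ticam2 was at 15.2, 17.4 and 16.7 CPM in untreated cells. Ticam2 stood at 18, 16 and 18.5 CPM with 1 µg and 16.1, 14.8 and 15.2 CPM with 10 µg at 6 h. For Ticam2 the 24 h values were 38.5, 47.7 and 59.2 CPM with 1 µg and 64.1, 87.1 and 89.1 CPM with 10 µg. The 6 h groups overlapped with untreated cells, the 24 h groups lay far above them, and every 10 µg 24 h library was above every 1 µg 24 h library. It rose by 1.56 ± 0.16 (adjusted p = 4.46e-06) with 1 µg, a 2.94-fold change, and by 2.28 ± 0.16 (adjusted p = 5.98e-08) with 10 µg, a 4.86-fold change. Ticam2 and Tmed7 overlap on the same strand over 838 bases, 14.5% of the exons of Ticam2, and Tmed7 itself changed by -0.06 ± 0.05 and 0.02 ± 0.05 in these comparisons, neither of them called. The other adaptor of this branch, Ticam1, rose by 0.38 ± 0.07 and 0.50 ± 0.07 at 24 h (adjusted p = 2.58e-05 and 2.37e-07).

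Myd88, the adaptor shared by most Toll-like receptors and the interleukin-1 receptors, was at 112, 102 and 110 CPM in untreated cells. Myd88 stood at 111, 105 and 107 CPM with 1 µg and 113, 108 and 109 CPM with 10 µg at 6 h. For Myd88 the 24 h values were 87, 100 and 97.4 CPM with 1 µg and 74.3, 79.2 and 84.2 CPM with 10 µg. The 1 µg 24 h libraries lay just below the untreated ones and the 10 µg 24 h libraries below both. It fell by 0.18 (SE 0.06, adjusted p = 0.00678) with 1 µg and by 0.44 (SE 0.06, adjusted p = 1.55e-07) with 10 µg. The 1 µg call was lost with upper-quartile or no scaling and without 1 µg 24 h replicate 1 (adjusted p up to 0.19 over all settings). Its opposite-strand neighbour Acaa1a, which shares 290 exon bases, changed by 0.29 ± 0.05 and 0.08 ± 0.05. Irak3, an IRAK protein without kinase activity that dampens signalling, rose at 24 h by 0.54 ± 0.08 and 0.59 ± 0.08 (adjusted p = 2.65e-06 and 3.52e-07). Tmbim4, which overlaps it on the opposite strand, rose by 0.38 ± 0.07 and 0.47 ± 0.07. Irak4, the first kinase of the Myd88 complex, rose by 0.20 ± 0.07 and 0.24 ± 0.07 (adjusted p = 0.0124 and 0.00292), and the first of these calls was lost without untreated replicate 3 or 1 µg 24 h replicate 2 (adjusted p up to 0.0988). Twf1, which overlaps Irak4 by 395 bases on the opposite strand, changed by -0.50 ± 0.06 and -0.48 ± 0.06. Irak1 fell by 0.14 (SE 0.04, adjusted p = 0.00531) after 10 µg for 24 h, and the call did not hold with upper-quartile or no scaling.

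In the group of TRAF, cIAP and RIP proteins, Birc3 rose in 3 of the 4 comparisons, Traf1 rose at 6 h, Birc2 rose at 24 h and Traf3 fell at 24 h. Birc3, a ubiquitin ligase of the TNF receptor complex, was at 42.7, 42.6 and 43.5 CPM in untreated cells. Birc3 stood at 48, 47.9 and 49.7 CPM with 1 µg and 58.9, 57.2 and 62.4 CPM with 10 µg at 6 h. For Birc3 the 24 h values were 84.3, 73.6 and 76 CPM with 1 µg and 79.1, 81.6 and 74.3 CPM with 10 µg. All treated groups lay above the untreated libraries, in steps from 1 µg 6 h to 10 µg 6 h to the 24 h groups, which overlapped with each other. The changes were 0.18 ± 0.06 (adjusted p = 1), not past the threshold, 0.47 ± 0.06 (adjusted p = 7.7e-06), 0.86 ± 0.06 (adjusted p = 3.12e-12) and 0.87 ± 0.06 (adjusted p = 8.12e-13), from the lower dose at 6 h to the higher dose at 24 h. Birc2, a close relative of Birc3, was at 32.6, 36.7 and 37.7 CPM in untreated cells. Birc2 stood at 35.9, 35.3 and 38.1 CPM with 1 µg and 36.8, 36.1 and 33.2 CPM with 10 µg at 6 h. For Birc2 the 24 h values were 52.2, 55.6 and 54.9 CPM with 1 µg and 50.2, 53.2 and 55.8 CPM with 10 µg. The 6 h groups overlapped with untreated cells and both 24 h groups lay above them, with rises of 0.60 ± 0.06 (adjusted p = 1.16e-08) and 0.57 ± 0.06 (adjusted p = 1.62e-08).

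Traf1, which binds TNF receptor 2 together with Traf2, was at 10.5, 10.9 and 13.2 CPM in untreated cells. Traf1 stood at 14.1, 13 and 12.5 CPM with 1 µg and 20.2, 23.1 and 20.8 CPM with 10 µg at 6 h. For Traf1 the 24 h values were 23.3, 14.9 and 12.2 CPM with 1 µg and 14, 13 and 13.6 CPM with 10 µg. The 10 µg 6 h libraries lay above all untreated and 1 µg 6 h libraries, and the 1 µg 24 h group was spread widely because replicate 1 was the highest of all 15 libraries. Traf1 rose by 0.89 ± 0.18 (adjusted p = 0.00866) at 6 h, the largest change of any member at that time. The change of 0.55 ± 0.18 (adjusted p = 0.017) after 1 µg for 24 h was lost without replicate 1 of that group (0.233, adjusted p = 0.0725), and also without untreated replicate 1 or 2 or with the 2 groups fitted alone (adjusted p up to 0.101). After 10 µg for 24 h it did not pass, at 0.23 ± 0.18 (adjusted p = 0.281).

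Traf3, which in resting cells helps to degrade NIK, was at 104, 98.5 and 105 CPM in untreated cells. Traf3 stood at 107, 109 and 103 CPM with 1 µg and 106, 110 and 104 CPM with 10 µg at 6 h. For Traf3 the 24 h values were 82, 79.5 and 74 CPM with 1 µg and 71.8, 70.1 and 68.6 CPM with 10 µg. Both 24 h groups lay below every other library and the 10 µg libraries below the 1 µg ones. It fell by 0.38 (SE 0.05, adjusted p = 2.86e-07) and 0.55 (SE 0.05, adjusted p = 3.86e-10). Tnfrsf1b, TNF receptor 2, was at 80.5, 80.1 and 79.6 CPM in untreated cells and 110, 121 and 116 CPM after 10 µg for 6 h, a rise of 0.53 ± 0.11 (adjusted p = 0.0158). These 2 groups did not overlap, while the 1 µg 24 h libraries, at 110, 73.1 and 81.3 CPM, lay on both sides of the untreated ones. The 6 h call was lost in 5 of the 6 fits without 1 of the libraries compared, all but that without 10 µg 6 h replicate 1 (adjusted p up to 0.0652). Cflar, an inhibitor of caspase-8, rose by 0.42 ± 0.07 (adjusted p = 0.000302) after 10 µg for 6 h and by 0.45 ± 0.07 (adjusted p = 2.32e-06) after 10 µg for 24 h. With 1 µg for 24 h its change of 0.15 ± 0.07 (adjusted p = 0.0567) did not pass, and it was 0.0273 without replicate 1 of that group. This change passed in DESeq2, with upper-quartile or no scaling and without 1 µg 24 h replicate 2 or 3. Traf2 fell by 0.17 (SE 0.07, adjusted p = 0.0306) after 1 µg for 24 h, a call that was lost in 6 settings, among them the fits without untreated replicate 2, untreated replicate 3 or 1 µg 24 h replicate 3. Traf6, Ripk1 and Ripk2 passed in none of the 4 comparisons. With upper-quartile or no scaling Ripk1 passed in both 24 h comparisons and Traf6 after 10 µg for 24 h.

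Of the feedback inhibitors 4 of 7 rose after 10 µg for 6 h, and with 10 µg 3 of those 4, all but Tnip1, were lower at 24 h than at 6 h. Tnfaip3 (A20), a ubiquitin-editing enzyme that shuts the pathway down, was at 28.5, 26.9 and 27.1 CPM in untreated cells. Tnfaip3 stood at 33.1, 33.6 and 29.7 CPM with 1 µg and 44.3, 51.1 and 47.7 CPM with 10 µg at 6 h. For Tnfaip3 the 24 h values were 27.1, 24.2 and 22.3 CPM with 1 µg and 34.6, 32.9 and 36.5 CPM with 10 µg. All 6 h libraries lay above the untreated ones, those with 10 µg far above, while the 1 µg 24 h libraries overlapped with untreated cells and the 10 µg 24 h libraries were raised again. Tnfaip3 rose by 0.79 ± 0.07 (adjusted p = 2.37e-07) after 10 µg for 6 h and by 0.33 ± 0.08 (adjusted p = 0.000347) after 10 µg for 24 h. The change with 1 µg was 0.22 ± 0.08 (adjusted p = 1) at 6 h and -0.16 ± 0.08 (adjusted p = 0.0669) at 24 h, neither past the threshold, and the second passed without 1 µg 24 h replicate 1 (adjusted p = 0.0103).

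Tnip1, a partner of A20 that binds ubiquitin chains, was at 76.8, 75.1 and 75.6 CPM in untreated cells. Tnip1 stood at 79.5, 77.5 and 77.2 CPM with 1 µg and 93.5, 97.6 and 107 CPM with 10 µg at 6 h. For Tnip1 the 24 h values were 83, 77.1 and 74.2 CPM with 1 µg and 97.7, 90.6 and 100 CPM with 10 µg. Both 10 µg groups lay above all other libraries, the 1 µg 6 h libraries lay narrowly above the untreated ones, and the 1 µg 24 h libraries overlapped with them. It rose by 0.39 ± 0.06 (adjusted p = 5.26e-05) at 6 h and 0.34 ± 0.06 (adjusted p = 5.64e-06) at 24 h with 10 µg. Zc3h12a (Regnase-1), a ribonuclease that destroys inflammatory transcripts, was at 19.4, 20.5 and 18 CPM in untreated cells. Zc3h12a stood at 19.4, 21.7 and 21.4 CPM with 1 µg and 28.9, 32.3 and 29.6 CPM with 10 µg at 6 h. For Zc3h12a the 24 h values were 21.3, 19.1 and 19.4 CPM with 1 µg and 20, 20.9 and 21.8 CPM with 10 µg. Only the 10 µg 6 h libraries stood out, above all 12 others, with a rise of 0.65 ± 0.08 (adjusted p = 4.38e-06), and after 10 µg for 24 h the change was 0.11 ± 0.08 (adjusted p = 0.197). The 24 h change with 10 µg passed with upper-quartile or no scaling.

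Zfp36 (tristetraprolin), which speeds the decay of Tnf messenger RNA, was at 56.2, 52.4 and 60 CPM in untreated cells. Zfp36 stood at 62, 58.4 and 60.3 CPM with 1 µg and 66.4, 67.9 and 71.7 CPM with 10 µg at 6 h. For Zfp36 the 24 h values were 64.1, 56.3 and 51.7 CPM with 1 µg and 47.2, 51 and 50.2 CPM with 10 µg. The highest were the 10 µg 6 h libraries and the lowest the 10 µg 24 h libraries, with changes of 0.29 ± 0.07 (adjusted p = 0.00795) and -0.18 ± 0.07 (adjusted p = 0.0185). The first call was lost without untreated replicate 2 or 10 µg 6 h replicate 3 (adjusted p up to 0.0645). The second was lost with upper-quartile or no scaling and without untreated replicate 3 or 10 µg 24 h replicate 1 (adjusted p up to 0.372). Tnip2 rose at 24 h by 0.21 ± 0.06 and 0.27 ± 0.06 (adjusted p = 0.00262 and 0.000228). Socs1 and Socs3, inhibitors of cytokine receptor signalling, were low: Socs1 was at 1.66, 0.912 and 1.04 CPM in untreated cells, 0.707, 0.518 and 0.739 CPM after 1 µg for 24 h and 0.91, 0.252 and 0.534 CPM after 10 µg for 24 h. Its changes of -0.88 ± 0.36 (adjusted p = 0.0357) and -1.07 ± 0.37 (adjusted p = 0.0123) lost their call without untreated replicate 1, and the first also without 1 µg 24 h replicate 2 and the second without 10 µg 24 h replicate 2 (adjusted p up to 0.223 and 0.0995 over all settings). The first did not hold in DESeq2, in limma-voom or with upper-quartile or no scaling either. Socs3 changed by -0.45 ± 0.17 (adjusted p = 0.0267) and -0.44 ± 0.17 (adjusted p = 0.0274) at 24 h, and both calls were lost without untreated replicate 1, the first also without 1 µg 24 h replicate 3 and the second without 10 µg 24 h replicate 1 or 2 (adjusted p up to 0.181 and 0.176 over all settings). Neither held with upper-quartile or no scaling, and the first was also lost with the 2 groups fitted alone.

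Of the 4 other target genes, Icam1 and Sod2 rose after 10 µg for 6 h and Tnfaip2 rose, and Cd44 and Sod2 fell, in both 24 h groups. Sod2, the mitochondrial superoxide dismutase, was at 115, 108 and 103 CPM in untreated cells. Sod2 stood at 118, 116 and 115 CPM with 1 µg and 139, 141 and 142 CPM with 10 µg at 6 h. For Sod2 the 24 h values were 91.3, 84.5 and 82.4 CPM with 1 µg and 85.8, 92.7 and 81.8 CPM with 10 µg. The 10 µg 6 h libraries were above and all 24 h libraries below every untreated one, the same order as for Nfkbia. The changes were 0.37 ± 0.05 (adjusted p = 5.32e-05), -0.34 ± 0.05 (adjusted p = 5.42e-06) and -0.33 ± 0.05 (adjusted p = 6e-06). Icam1, an adhesion molecule for leukocyte integrins, was at 119, 115 and 113 CPM in untreated cells. Icam1 stood at 121, 118 and 118 CPM with 1 µg and 140, 143 and 142 CPM with 10 µg at 6 h. For Icam1 the 24 h values were 132, 122 and 111 CPM with 1 µg and 115, 112 and 116 CPM with 10 µg. All 12 other libraries lay below those given 10 µg for 6 h, with a rise of 0.29 ± 0.05 (adjusted p = 0.000651), and neither 24 h group passed. The 1 µg 24 h group passed for Icam1 with upper-quartile or no scaling or without its replicate 3.

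Tnfaip2 was at 235, 206 and 220 CPM in untreated cells. Tnfaip2 stood at 231, 225 and 217 CPM with 1 µg and 240, 239 and 252 CPM with 10 µg at 6 h. For Tnfaip2 the 24 h values were 413, 379 and 385 CPM with 1 µg and 441, 473 and 522 CPM with 10 µg. The 10 µg 6 h libraries lay slightly above the untreated ones, without passing (0.15 ± 0.06 (adjusted p = 0.162)), and the 24 h libraries stood well above, with those given 10 µg highest. It rose by 0.83 ± 0.06 (adjusted p = 7.02e-12) and 1.12 ± 0.06 (adjusted p = 8.1e-15), the last a 2.17-fold change. Cd44 was at 619, 620 and 610 CPM in untreated cells. Cd44 stood at 646, 640 and 629 CPM with 1 µg and 668, 639 and 633 CPM with 10 µg at 6 h. For Cd44 the 24 h values were 398, 453 and 446 CPM with 1 µg and 426, 444 and 419 CPM with 10 µg. Both 24 h groups were far below the other 9 libraries and overlapped with each other, with falls of 0.51 (SE 0.05, adjusted p = 2.33e-09) and 0.52 (SE 0.05, adjusted p = 8.43e-10).

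The doses were also compared directly, 10 µg against 1 µg at the same time. At 6 h, 12 members were higher with 10 µg and 0 were lower. Of all genes tested 2.35% passed, 1.85% upward and 0.492% downward. They were Nfkbia, Nfkbie, Nfkbiz, Irak2, Tnfrsf1b, Birc3, Cflar, Tnfaip3, Tnip1, Zc3h12a, Icam1 and Sod2. The largest differences were those of Nfkbiz at 0.63 ± 0.08 (adjusted p = 6.78e-05), Tnfaip3 at 0.57 ± 0.07 (adjusted p = 5.71e-05) and Zc3h12a at 0.54 ± 0.08 (adjusted p = 0.000138). With these 2 groups fitted alone the count was 19 members, and 1044 of all genes in place of 291. The calls of Nfkbia and Tnfrsf1b (adjusted p = 0.0339 and 0.0489) were lost without any 1 of the 6 libraries compared, to at most 0.181 for each. They also failed without scaling beyond library totals, and that of Tnfrsf1b with RLE or upper-quartile scaling or without the filter on low counts. That of Cflar was lost without 1 µg 6 h replicate 1 or 3 or 10 µg 6 h replicate 1 or 2 (up to 0.0921), and that of Birc3 without 10 µg 6 h replicate 3 (0.0532). Leaving out 1 library at a time gave 111 to 163 calls over all genes.

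At 24 h, 10 members were higher and 6 lower with 10 µg than with 1 µg, against 16% and 19.3% of all genes tested, so the members' share called (34%) was near the 35.3% of all genes. The higher ones were Relb, Nfkb2, Nfkbib, Tab2, Ticam2, Irak2, Cflar, Tnfaip3, Tnip1 and Tnfaip2, and the lower ones Rel, Nfkbid, Myd88, Irak1, Traf3 and Zfp36. Ticam2 differed by 0.73 ± 0.15 (adjusted p = 0.00201), Tnfaip3 by 0.50 ± 0.08 (adjusted p = 1e-05), Irak2 by 0.45 ± 0.05 (adjusted p = 7.55e-08) and Nfkbid by -0.43 ± 0.08 (adjusted p = 0.000212). Of the members that had moved by over 0.5 in both 24 h groups, Relb, Irak2, Ticam2 and Tnfaip2 were among those higher with 10 µg. Birc2, Birc3, Nfkbie and Cd44 had also moved that far, and differed between the doses by -0.03 ± 0.06, 0.01 ± 0.06, 0.06 ± 0.06 and -0.01 ± 0.05. Nfkbiz, Irak3, Ikbke and Socs1, which had moved that far too, did not pass between the doses. The split turned on single libraries and on the fit: it was 10 higher and 10 lower without 1 µg 24 h replicate 3, and 9 and 2 with these 2 groups fitted alone. Without replicate 1 of the 1 µg 24 h group, 15 members passed, 12 higher and 3 lower, and the calls of Irak1, Traf3 and Zfp36 were lost. Tnfrsf1b, at 0.00 ± 0.11 (adjusted p = 0.99) with that library, was 0.195 higher without it (adjusted p = 0.00966).

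The dose difference changed between the times for 13 members by the test of the interaction of dose and time: 12 had a difference at 24 h that was lower than at 6 h, and 1, Ticam2, had one that was higher. Of all genes tested 18.6% passed, 11% downward and 7.58% upward. The member with the largest interaction was Traf1, whose dose difference was 0.69 ± 0.18 at 6 h and -0.32 ± 0.18 at 24 h (interaction -1.01 ± 0.25 (adjusted p = 0.0119)). Without 1 µg 24 h replicate 1 the Traf1 interaction was -0.695 (adjusted p = 0.000951). For Nfkbid the dose difference went from 0.21 ± 0.08 to -0.43 ± 0.08 (interaction -0.64 ± 0.11 (adjusted p = 0.000306)), and for Nfkbiz from 0.63 ± 0.08 to 0.09 ± 0.08 (interaction -0.54 ± 0.11 (adjusted p = 0.00152)). Ticam2 went the other way, from -0.19 ± 0.18 to 0.73 ± 0.15 (interaction 0.91 ± 0.23 (adjusted p = 0.0177)). The others were Nfkbia, Nfkbie, Zc3h12a, Zfp36, Icam1, Myd88, Birc3, Sod2 and Rel, with interactions between -0.47 and -0.26. Relb and Irak2, which were higher with 10 µg at 24 h, had interactions of 0.16 ± 0.09 (adjusted p = 0.266) and 0.04 ± 0.07 (adjusted p = 0.758), which did not pass.

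**Figure D4:**
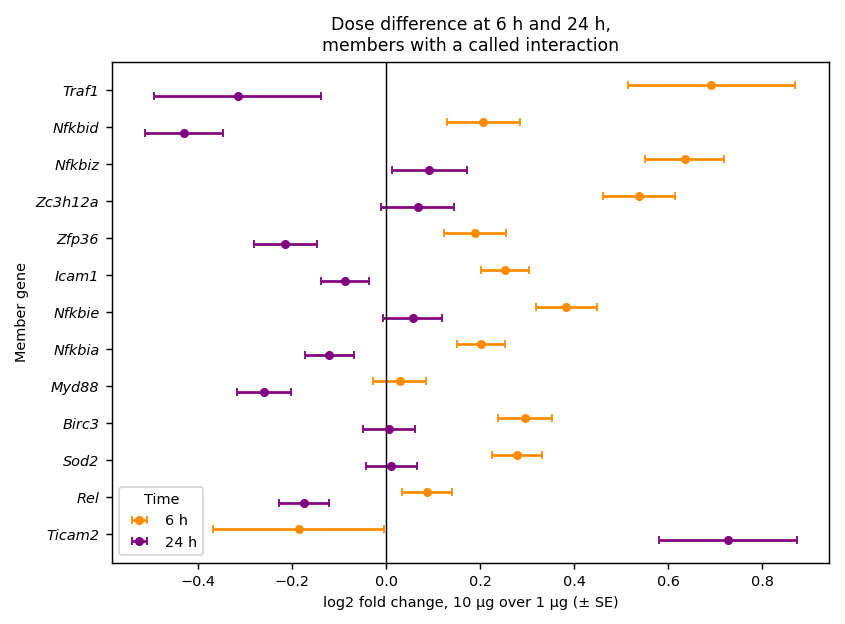
Log2 fold change of 10 µg over 1 µg (± SE) at 6 h and at 24 h for the 13 members whose dose difference changed with time. The 6 h points lie to the right of the 24 h points for 12 members, and Ticam2 alone has the reverse order.

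The times were compared within each dose, which leaves the untreated libraries out. Peptide exposure and time in culture differ together between 6 h and 24 h, so they cannot be told apart here either. With 10 µg, 15 members were higher and 20 lower at 24 h than at 6 h. Of all genes tested 69.2% passed, 34% upward and 35.2% downward. Among those that had risen at 6 h, Relb, Nfkb2, Nfkbib, Irak2 and Birc3 were higher still at 24 h, with Irak2 at 0.62 ± 0.05 (adjusted p = 2.72e-11) and Relb at 0.58 ± 0.06 (adjusted p = 1.16e-08). Nfkbie, Nfkbiz, Cflar and Tnip1 did not pass, with differences between -0.05 ± 0.05 for Tnip1 and 0.04 ± 0.06 for Nfkbie. Nfkbia, Nfkbid, Tnfrsf1b, Traf1, Tnfaip3, Zc3h12a, Zfp36, Icam1 and Sod2 were lower at 24 h, with Nfkbid at -1.08 ± 0.08 (adjusted p = 1.38e-11), Nfkbia at -0.70 ± 0.05 (adjusted p = 7.73e-12) and Tnfaip3 at -0.46 ± 0.07 (adjusted p = 3.93e-06). These groups of genes were named after their 6 h values were seen, and the 10 µg 6 h libraries enter both comparisons, so the pattern is a description. With 1 µg, 15 members were higher and 14 lower at 24 h, and 60.7% of all genes tested passed, 30.3% upward and 30.5% downward. The largest of these differences were those of Ticam2 at 1.47 ± 0.17 (adjusted p = 7.93e-06), Socs1 at -1.05 ± 0.35 (adjusted p = 0.0129), Ikbke at 0.93 ± 0.18 (adjusted p = 0.000805) and Tnfaip2 at 0.81 ± 0.06 (adjusted p = 1.3e-11). The Socs1 call was lost without 1 µg 24 h replicate 2 (adjusted p = 0.0562), and the Ikbke difference was 0.631 without 1 µg 24 h replicate 1 (adjusted p = 9.31e-07). With upper-quartile scaling the splits were 21 up and 18 down for 10 µg and 22 up and 8 down for 1 µg, and without scaling beyond library totals 19 and 19, and 24 and 8.

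Pathway genes outside the 47 were taken from 4 lists of receptors and co-receptors, ligands, ubiquitin enzymes and adaptors, and the downstream MAP kinase branch, 103 genes of which 95 could be tested. After 1 µg for 6 h, 0 passed in edgeR, with 1 at an unadjusted p under 0.05. After 10 µg for 6 h, 11 of the 95 rose and 2 fell, with a median log2 fold change of -0.00. Of all genes tested 4.09% passed upward and 1.86% downward. Among the receptors Cd40 rose by 0.96 ± 0.24 (adjusted p = 0.0151) and Tlr2, the receptor for bacterial lipoproteins, by 0.44 ± 0.09 (adjusted p = 0.00797). Of the ligands only the cytokine Tnf passed, at 0.96 ± 0.14 (adjusted p = 0.00204). The kinase Tbk1 rose by 0.26 ± 0.05 and the paracaspase Malt1 by 0.32 ± 0.06. Of the 2 that fell, Mapk14 of the MAP kinase branch did so by 0.18 (SE 0.04, adjusted p = 0.0158). Its call was lost without untreated replicate 2 or 3 or 10 µg 6 h replicate 1 or 3 (adjusted p up to 0.0764). The Cd40 call was lost without untreated replicate 1 or 10 µg 6 h replicate 1 (adjusted p up to 0.0992). After 1 µg for 24 h, 33 rose and 30 fell, and after 10 µg for 24 h, 36 rose and 37 fell. In all, 63 and 73 of the 95 passed, near the 61.8% and 70.3% of all genes tested. At 24 h with 10 µg, Cd40 rose by 2.09 ± 0.22 and Tifa, a TRAF-binding adaptor, by 1.17 ± 0.06. Of the 6 ligands tested, 4 rose and 1 fell. Lymphotoxin beta (Ltb) rose by 0.94 ± 0.14 and Il1a by 0.97 ± 0.35 (adjusted p = 0.0162), a call lost without untreated replicate 3 or 10 µg 24 h replicate 3 (adjusted p up to 0.112). Tnf fell by 0.46 (SE 0.14, adjusted p = 0.0136), a call lost with upper-quartile scaling (adjusted p = 0.0512). The co-receptor Cd14 fell by 0.90 (SE 0.06), the transcription factor Irf5 by 0.93 (SE 0.05) and Ube2n, the enzyme that builds the ubiquitin chains of the pathway, by 0.93 (SE 0.06). In the downstream MAP kinase branch Map2k3 fell by 1.63 (SE 0.06) and Fos by 1.69 (SE 0.08), while Atf3, a repressor of inflammatory genes, rose by 1.52 ± 0.05.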

How the data were processed

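RNA from 15 RAW264.7 libraries was sequenced after TRIzol extraction and a stranded mRNA library preparation, per the labels' protocols. What the authors deposited is 1 count table, with raw whole numbers by gene symbol. The build is GRCm39, per the submitters' processing notes. Not given in the sources used here are the aligner, counting tool, annotation, strand setting and filters. Columns were assigned through the column names in the labels, with 0 left over. All libraries carry the same batch label. Totals were 19085148 to 22434642 counts.

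Counts were fitted in R 4.3.3 with edgeR 4.0.16: filterByExpr at its defaults (12401 genes, 99.97% of counts), TMM scaling, 1 robust quasi-likelihood fit of all 15 libraries and two-sided tests of 9 contrasts, with Benjamini-Hochberg adjustment over the genes tested and a threshold of 0.05. The common biological coefficient of variation was 5.68%, over 10 residual degrees of freedom. The SE is the log2 fold change divided by the square root of F. CPM uses TMM-adjusted library sizes, except for the sums over cell marker lists, which use unadjusted library totals. The scripts were tested on simulated data.

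Alternatives were RLE, upper-quartile and no scaling, no filter, the 2 groups alone, DESeq2 1.42.0, limma-voom (limma 3.58.1), a replicate block and each library left out in turn. The members and gene lists were chosen with earlier results of these data known. Values in every library are given for the 3 members of each role group with the smallest p over the comparisons with untreated cells and for any member with a called interaction, and other values by choice. At most 3 genes of each pathway list that passed are named. Exon lengths and overlaps came from GENCODE M21 and promoters from RefSeq GRCm38.p6, not the authors' annotation. By M21, 16 members share exon sequence with another gene, 4 on the same strand.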

Additional observations from a re-analysis of the deposited data

Results flagged for a closer look

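For 13 members the difference between 10 µg and 1 µg at 24 h departed from that at 6 h by the edgeR test of the interaction of dose and time. The value of each is the log2 dose difference at 24 h minus that at 6 h. Among IkB genes it was -0.64 for Nfkbid, -0.54 for Nfkbiz, -0.33 for Nfkbie and -0.32 for Nfkbia. The Rel factor Rel had -0.26, and this call was lost without 1 µg 6 h replicate 1 or 10 µg 6 h replicate 1 (adjusted p up to 0.0691). Among adaptors it was -0.29 for Myd88 and 0.91 for Ticam2, the only positive value. Traf1 had -1.01 and Birc3 -0.29. The feedback genes Zc3h12a and Zfp36 had -0.47 and -0.40, and the target genes Icam1 and Sod2 had -0.34 and -0.27. Traf1 was highest in 1 µg 24 h replicate 1, the library that stood apart, and its value was -0.695 without that library.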

How the results depend on the processing

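No called result changed its sign under any alternative run. The number of members called kept within 1.5 times the reported one in all comparisons and settings but 1: for 10 µg against 1 µg at 6 h it rose from 12 to 19 with the 2 groups fitted alone. Leaving out 1 library at a time gave 0 to 0 members for 1 µg at 6 h, 14 to 16 for 10 µg at 6 h, 28 to 30 for 1 µg at 24 h and 33 to 35 for 10 µg at 24 h against untreated cells. It gave 9 to 10 and 14 to 20 between the doses at 6 h and 24 h, 27 to 29 and 33 to 35 between the times at 1 µg and 10 µg, and 12 to 16 for the interaction. Replicate numbers in the labels are shared by the groups. Deviations of same-numbered libraries of different groups correlated by -0.0814 to 0.0963 over 30 pairs, with a median of 0.0168. Those of libraries with other numbers correlated by -0.0943 to 0.12 over 60 pairs, with a median of -0.00738. The numbers were not taken as pairs, although 9 of 15 libraries correlated best with their own number. With the replicate number as a block the counts of members called were 0, 18, 30, 36, 12, 16, 29, 35 and 13, as without it. Small changes at 24 h depended on scaling, with calls gained as well as lost, and the cause of this was not tested. Over the members and named pathway genes in all comparisons, upper-quartile scaling gained 26 calls and lost 23. Without scaling beyond library totals 26 were gained and 20 lost. Depth limits Socs1, which was under 2 CPM in every library.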
